A study of Homo sapiens with 2 samples.

Results

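The AP-1 family was represented by 10 genes, which were looked up in peak lists of Flag-tagged HOXA5: JUN, JUNB, JUND, FOS, FOSB, FOSL1, FOSL2, ATF3, BATF and BATF3. The 10 genes were taken by name from the 20050 protein-coding genes of the RefSeq table for GRCh38.p14, and a gene was counted as holding a peak when a peak lay inside it or at most 3 kb from either of its ends. The cells were TFK-1, an established human line of extrahepatic cholangiocarcinoma. They had been transduced with a lentivirus, either LV-HOXA5, which expresses HOXA5 with a Flag tag, or its negative control LV-HOXA5-NC, and transduced cells were kept under puromycin. Both lines were profiled by CUT & Tag with an antibody to Flag, in which a transposase tethered to the antibody cuts the DNA around the bound protein. Each condition had 1 library from 1000000 cells, so no value below has a replicate check and no difference between the conditions was tested. Whether the control vector carries a Flag tag is not given in the sources used here.

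AP-1 is a dimer of basic leucine zipper proteins. The FOS proteins pair with a JUN protein, the JUN proteins can also pair with each other, and ATF3, BATF and BATF3 join as further partners, so that the composition of the dimer sets which genes it acts on. Many of these genes are immediate-early genes, which growth factors, cytokines and stress switch on within minutes through MAP kinases, and AP-1 is known for its roles in proliferation, survival and invasion of epithelial tumours. HOXA5 is a homeodomain transcription factor, and homeodomains bind DNA around a short core with the letters ATTA.

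Depth differed between the libraries, with 15778555 fragments in LV-HOXA5 and 1948734, or 12.4% of that, in LV-HOXA5-NC. The list of LV-HOXA5 had 8043 peaks and that of LV-HOXA5-NC 635. For each peak the lists give the pileup, which is the number of fragments over the summit, and the fold enrichment, which sets the pileup against the fragments around it in the same library. HOXA5 itself, on chromosome 7, carried an LV-HOXA5 peak at chr7:27143075-27143674 (pileup 44, fold enrichment 7.55) and 0 LV-HOXA5-NC peaks. At the depth of the control library that pileup would be 5.43 fragments, and of the LV-HOXA5 peaks with a scaled pileup of at least 4, the lowest in the control list, only 29.2% shared a control peak, so the lack of one at HOXA5 does not check the labels. Fragments of the vector's copy of HOXA5 and of the gene cannot be told apart in that peak.

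Of the 10 AP-1 genes, 4 held an LV-HOXA5 peak: JUN, FOSL2, ATF3 and BATF. This share of 40.0% had an exact Clopper-Pearson 95% interval from 12.2% to 73.8%, which like all intervals here covers counting error only. Over all protein-coding genes, 4156 of 20050 held such a peak, or 20.7%, a share that lies inside the members' interval. Over all genes of the table, noncoding ones included, the share was 11.3%, just below that interval. ATF3, BATF and FOSL2 are also the longest members, at 55.4, 24.5 and 24.5 kb, whereas JUN has 3.26 kb. The longest member without a peak, BATF3, has 13.4 kb. The part of gene length in these counts was not tested. None of the 10 genes held an LV-HOXA5-NC peak. For 0 of 10 the exact upper limit is 30.8% (3 counts of 10 give 30.0%), and the share over all protein-coding genes in that list was 0.713%, which is within that limit.

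The 4 genes held 6 LV-HOXA5 peaks. JUN and FOSL2 had 1 each, just before the start of the gene, and ATF3 and BATF had 2 each, inside the gene. The sequence of the first 2 regions is shown because these peaks reach the window from 250 bases before to 50 bases after the start that RefSeq gives for each promoter. Both windows run from 5′ to 3′ on the strand of the gene, JUN on the minus strand at chr1:58783998-58784297 and FOSL2 on the plus strand at chr2:28392608-28392907 of GRCh38, with the bases under the peak in capitals.

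JUN: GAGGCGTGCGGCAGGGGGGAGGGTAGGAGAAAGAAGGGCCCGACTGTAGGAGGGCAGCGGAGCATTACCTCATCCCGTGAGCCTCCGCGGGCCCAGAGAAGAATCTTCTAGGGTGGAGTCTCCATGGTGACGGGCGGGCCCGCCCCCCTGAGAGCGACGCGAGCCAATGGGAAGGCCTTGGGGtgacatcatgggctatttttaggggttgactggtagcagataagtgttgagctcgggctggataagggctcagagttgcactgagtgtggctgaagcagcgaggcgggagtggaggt
FOSL2: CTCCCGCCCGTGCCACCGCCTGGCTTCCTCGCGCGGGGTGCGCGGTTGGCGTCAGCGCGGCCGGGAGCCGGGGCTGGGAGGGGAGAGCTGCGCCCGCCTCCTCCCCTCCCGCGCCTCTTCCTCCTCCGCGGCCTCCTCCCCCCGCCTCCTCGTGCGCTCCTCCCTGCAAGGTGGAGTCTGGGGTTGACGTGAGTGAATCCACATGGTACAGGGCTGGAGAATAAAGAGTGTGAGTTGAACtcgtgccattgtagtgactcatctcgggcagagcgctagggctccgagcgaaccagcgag

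JUN encodes c-Jun, a JUN protein that can pair with the FOS proteins or with another JUN protein. Its peak, chr1:58784115-58784392, was 278 bp long and lay in no annotated gene. With the first base of the gene as position 1, the peak spanned positions -345 to -68 and its summit was at -140. Its edge was thus 68 bp from the gene, and JUN was the gene with the nearest end. The pileup was 15 (exact Poisson 95% interval 8.40 to 24.7), below the median of 17 over the list. The fold enrichment was 4.53, rank 4758 of 8043, and the −log10 q-value was 4.44.

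A further 2 LV-HOXA5 peaks lay within 100 kb of JUN, both in JUN-DT, the noncoding gene that is transcribed away from JUN. The nearer one, chr1:58815491-58815827, was 31.4 kb from JUN and also inside the noncoding gene LOC101926907 (pileup 10, fold enrichment 4.27). The farther one, chr1:58848993-58849243, was 64.9 kb away and had the highest fold enrichment near JUN, 5.49 at a pileup of 13. JUN therefore had 3 peaks on the side of its start and 0 in or past the gene body.

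JUNB and JUND, which encode the other JUN proteins and often act against c-Jun in growth control, held no peak. The peak nearest to JUNB, chr19:12736902-12737534, was 54.0 kb away and covered an end of GET3 (pileup 22, fold enrichment 5.75). It was the only one within 100 kb of JUNB, although 14 other protein-coding genes lie in that window. JUND had 3 peaks within 100 kb, the nearest at 83.5 kb inside PGPEP1. The highest in fold enrichment, chr19:18192767-18193165, was 86.5 kb away and 53 bp from an end of MPV17L2 (pileup 18, fold enrichment 5.98). The remaining one was just inside the window, at 98.7 kb, and outside any gene, with a pileup of 19 and a fold enrichment of 5.32.

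**Figure D1:**
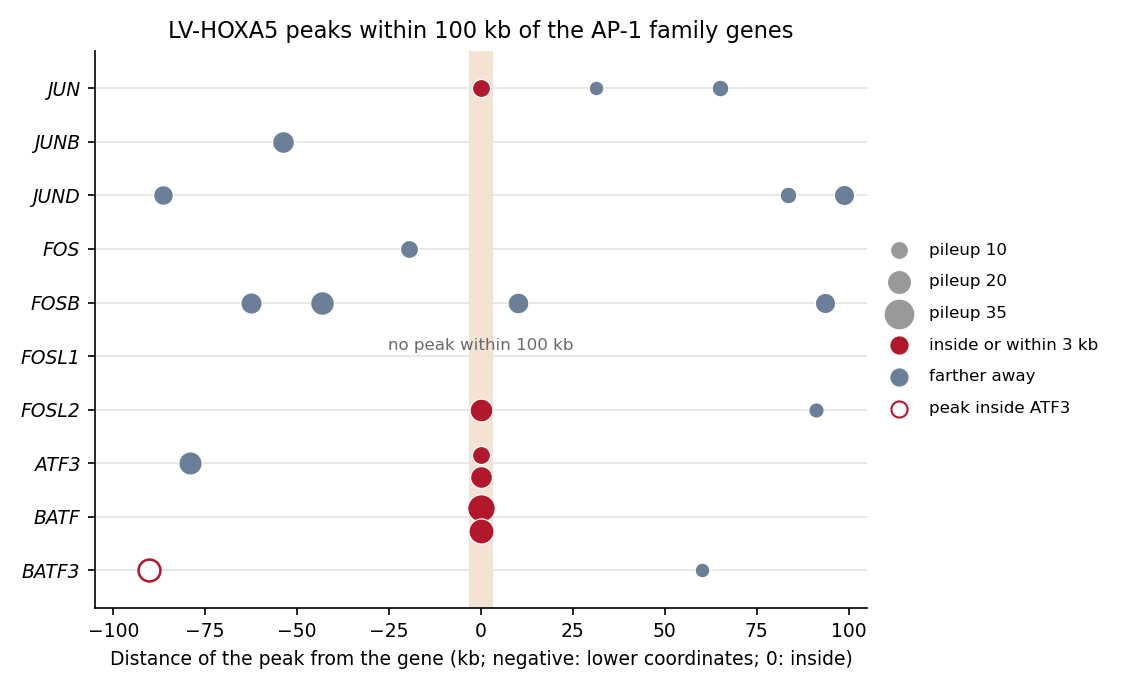
LV-HOXA5 peaks within 100 kb of each AP-1 gene. The horizontal axis gives the distance from the gene in kb (negative towards lower coordinates, 0 inside the gene), the area of a circle follows the pileup, and the shaded band marks 3 kb on either side. Red circles are the 6 peaks inside or within 3 kb of JUN, FOSL2, ATF3 and BATF (those of ATF3 and BATF are set apart vertically), blue circles the 14 peaks farther away, and the open circle repeats a peak inside ATF3 that is 90140 bp from BATF3. FOSL1 has no peak in the window.

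Of the 4 FOS genes, only FOSL2 held a peak. FOSL2 encodes Fra-2, a FOS protein without the strong activation domain of c-Fos. Its peak, chr2:28392521-28392847, was 327 bp long and lay in the antisense gene FOSL2-AS1, and its edge was 11 bp from the first base of FOSL2. It spanned positions -337 to -11 with the summit at -38. The pileup was 24 (interval 15.4 to 35.7), the fold enrichment 4.56 (rank 4677) and the −log10 q-value 7.05. The only other peak within 100 kb of FOSL2 was 91.1 kb away inside PLB1 (pileup 11, fold enrichment 3.79).

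FOS, the immediate-early gene of c-Fos, had 1 peak in the window, chr14:75259007-75259254, which was 19.6 kb before its start and outside any gene (pileup 15, fold enrichment 4.88). The next one was just outside the window, 101859 bp from FOS. FOSB had 4 peaks, more than any other member, of which the nearest was 10.2 kb away, inside RTN2 and 71 bp from an end of that gene (pileup 20, fold enrichment 3.92). This was the peak closest to the limit of 3 kb among those outside it. The strongest by fold enrichment, 4.71 at a pileup of 19, was 93.6 kb away inside OPA3, and the remaining 2 were in PPP1R13L and ERCC1. At least 4 peaks within 100 kb were found for 5.60% of protein-coding genes.

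FOSL1, which encodes Fra-1, was the only member with no LV-HOXA5 peak within 100 kb, and its nearest peak was 179444 bp away. FOSL1 lies among 14 other protein-coding genes within 100 kb. Of the 805 protein-coding genes with at least 14 such neighbours, 163 (20.2%) likewise had no peak in the window, against 44.7% of all protein-coding genes.

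The partner genes ATF3 and BATF held the member peaks of highest fold enrichment. ATF3 encodes a stress-induced partner of the JUN proteins that often represses transcription. Its peaks lay inside the gene. The first, chr1:212566836-212567331, was 1429 bp from the first base of the gene and had the same pileup and fold enrichment as the JUN peak, 15 and 4.53, values that 8 peaks of the list shared. The second, chr1:212595840-212596277, had a pileup of 22 (interval 13.8 to 33.3), a fold enrichment of 6.02 (rank 1777) and a −log10 q-value of 9.34. ATF3 has a second annotated start farther into the gene, and this peak lay 18741 bp from it, so neither ATF3 peak covered a start. Another peak, 79.0 kb from ATF3 towards lower coordinates and outside any gene, had a pileup of 25 and a fold enrichment of 4.38.

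BATF encodes a small partner without an activation domain of its own, known mainly from lymphocytes. It held the member peak with the highest values, chr14:75531699-75532164, with a pileup of 35 (interval 24.4 to 48.7), a fold enrichment of 6.04 (rank 1754) and a −log10 q-value of 14.5. The second, chr14:75535975-75536408, had a pileup of 29 (19.4 to 41.6), a fold enrichment of 4.71 (rank 4285) and a −log10 q-value of 8.92. Both were well inside the gene, at positions 9231 to 9696 and 13507 to 13940 from its start. Exons and introns were not separated, since the gene table used here gives gene ends only. BATF and FOS are 240 kb apart on chromosome 14, with JDP2, the gene of another JUN partner, between them, and 0 LV-HOXA5 peaks lay between FOS and BATF.

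BATF3, known for its role in dendritic cells, held no peak. It lies 65.6 kb past ATF3 on chromosome 1, and the second ATF3 peak, 90140 bp away, was the strongest within 100 kb of it. The nearest was at chr1:212759962-212760375, inside NSL1 and 60.1 kb away (pileup 10, fold enrichment 4.11).

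Set in order of pileup, the 6 member peaks ran from 35 and 29 at BATF through 24 at FOSL2 and 22 at ATF3 to 15 at both ATF3 and JUN. Neighbours in this order had widely overlapping intervals, whereas those of the highest and the lowest barely met, at 24.4 and 24.7. The lower bounds of both BATF intervals were above the list median of 17, while the intervals of the other 4 included it. The median pileup of the 6 member peaks was 23, against 16 for the 4246 peaks inside or within 3 kb of protein-coding genes. The median fold enrichment of the 6, 4.64, was close to the 4.74 of those 4246 peaks and the 4.82 of the whole list. Of the 6, 2 were above the median of the list. The local background that pileup and fold enrichment imply ran from 2.53 to 5.37 fragments at the members, with a median of 2.55 over the list. The higher pileups at BATF and FOSL2 thus stood on a higher local background.

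**Figure D2:**
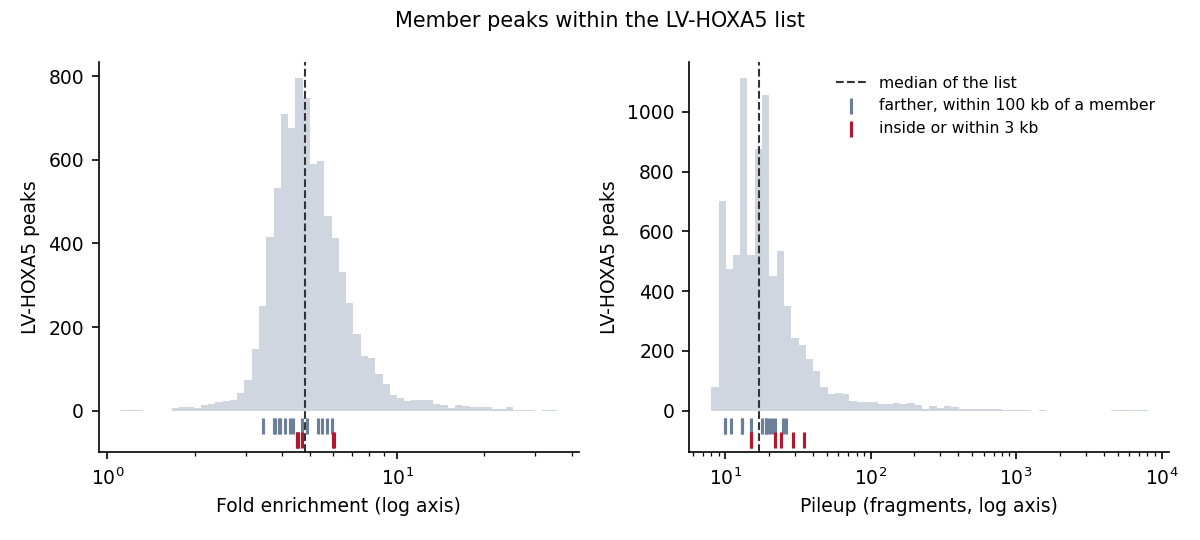
Fold enrichment (left) and pileup in fragments (right) of the 8043 LV-HOXA5 peaks, both on log axes, as histograms with the median as a dashed line. Red ticks mark the 6 peaks inside or within 3 kb of an AP-1 gene, and blue ticks the 14 others within 100 kb. The red ticks run from 4.53 to 6.04 in fold enrichment and from 15 to 35 in pileup, within the bulk of the list.

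Within 100 kb, 9 of the 10 members had at least 1 LV-HOXA5 peak, against 55.3% of protein-coding genes. The exact interval of the members' share ran from 55.5% to 99.7%, with its lower bound just above that background. The median was 2 peaks for the members and 1 for protein-coding genes. At least 2 peaks were found for 7 members (interval 34.8% to 93.3%), against 27.1% of protein-coding genes. Both intervals leave out their background, but they treat the members as separate, whereas ATF3 and BATF3 share 1 of the peaks. The members were also chosen with earlier results of these data known, so neither interval was read as a test. The windows held 20 different peaks in all. Apart from the 6 at the members, 14 were farther away, with fold enrichments from 3.44 to 5.98 and pileups from 10 to 26. Of these 14, 10 lay inside another gene and 6 were within 3 kb of an end of another gene. Nearness alone does not assign such a peak to the AP-1 gene. The members had a median of 3 protein-coding neighbours in the window, against 4 over all protein-coding genes.

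No LV-HOXA5-NC peak lay within 100 kb of any member, where 3.20% of protein-coding genes had one. The nearest control peak was 1.06 Mb from FOSB, and the farthest of the 10 nearest ones was 27.3 Mb from JUN. Accordingly, 0 of the 20 peaks in these windows shared at least 1 bp with a control peak, a share with an exact upper limit of 16.8% (3 counts of 20 give 15.0%). Over the whole list, 444 of 8043 peaks did, or 5.52%, which is within that limit.

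Depth bears on this comparison. When the pileups were scaled to the depth of the control library, the 6 member peaks came to between 1.85 and 4.32 fragments. The lowest pileup in the control list was 4, and of the 20 peaks near the members only the stronger BATF peak reached it. Over the list, 1062 peaks (13.2%) reached that level, and 29.2% of these shared a control peak, against 1.92% of the rest. For the other 19 peaks near the AP-1 genes, the scaled value was below the lowest one listed, so a site of equal density was less likely to be listed in the control, though counting error can still bring it there. At BATF the scaled value of 4.32 was just above that level.

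**Figure D3:**
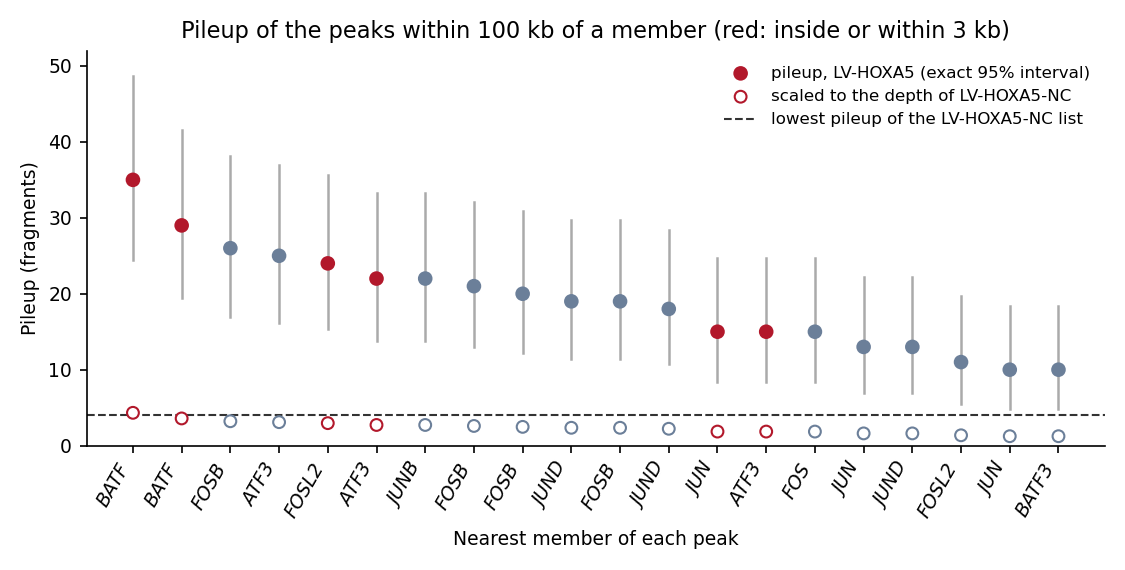
Pileup of the 20 peaks of LV-HOXA5 found within 100 kb of an AP-1 gene, in fragments, in falling order and named by the nearest member (red for the 6 inside or within 3 kb, blue for the others). Filled circles are the pileups with exact 95% Poisson intervals, and open circles the same values scaled to the depth of LV-HOXA5-NC. The dashed line is the lowest pileup of the LV-HOXA5-NC list, 4, which 1 scaled value, at BATF, exceeds.

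Promoter windows were given by RefSeq for 8 of the 10 members, with 2 for ATF3 and 1 for each of the others, and were not given for FOSL1 and BATF3. An LV-HOXA5 peak shared at least 1 bp with the window of 2 of these 8 genes, JUN and FOSL2, against 12.6% of the 15843 protein-coding genes with a window. The JUN peak covered 183 of the 300 bases and the FOSL2 peak 240, and both included their summit. The median GC content was 64.0% over the 9 member windows, 63.3% over the 2892 windows with a peak and 58.7% over all 35116. The JUN window had 62.0% and the FOSL2 window 68.7%. Among the windows without a peak, JUND had 77.0% and JUNB 71.0%. The part of GC content in where peaks lay was not tested. BATF and ATF3, whose peaks were inside the gene, had windows of 46.0% to 48.0%.

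In all, 6 short motifs were searched on both strands of the windows. A match is a description of the letters, not a site or a cause. The homeodomain core ATTA was found in 3 of the 9 member windows (JUN, FOS and BATF) and in 50.2% of all windows, or 39.7% of those with a peak. The longer form TAATTA, which contains the core, was in 0 of the 9, in 4.84% of all and in 2.14% of those with a peak. In the JUN window shown above, the core was at positions -187 to -184, under the peak. The FOSL2 window had none.

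The AP-1 site itself, TGACTCA, was found in 1 member window, that of FOSL2, in 4.95% of all windows and in 3.42% of those with a peak. It was at positions 5 to 11, just past the start, while the peak ended at position -11. The related cAMP response element TGACGTCA was likewise found in 1 member window, that of JUND, at positions -200 to -193, in 1.85% of all windows and in 3.87% of those with a peak. These 2 matches are shown in capitals with 25 bases on either side, FOSL2 on the plus strand at chr2:28392837-28392893 and JUND on the minus strand at chr19:18281790-18281847.

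FOSL2: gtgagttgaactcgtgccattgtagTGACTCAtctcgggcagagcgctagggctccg
JUND: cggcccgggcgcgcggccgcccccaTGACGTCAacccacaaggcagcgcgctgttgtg

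The CCAAT box, spelled CCAAT, was in 4 of the 9 member windows (JUN, JUNB, JUND and the first start of ATF3), in 34.6% of all windows and in 51.7% of those with a peak. The GC box GGGCGG was in 7 of the 9, in 45.0% of all windows and in 73.3% of those with a peak. JUND had 6 GC boxes. In JUN the 2 GC boxes, the CCAAT box and the homeodomain core were all under the peak. In FOS, the start of which had no peak, the window at chr14:75278578-75278877 on the plus strand held the homeodomain core at positions -182 to -179, shown in capitals.

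FOS: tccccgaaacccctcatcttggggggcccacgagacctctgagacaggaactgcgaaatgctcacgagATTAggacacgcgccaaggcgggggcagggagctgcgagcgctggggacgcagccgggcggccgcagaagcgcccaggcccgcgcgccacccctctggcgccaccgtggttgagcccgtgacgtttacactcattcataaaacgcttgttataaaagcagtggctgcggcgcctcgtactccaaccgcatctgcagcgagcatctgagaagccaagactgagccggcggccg

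**Figure D4:**
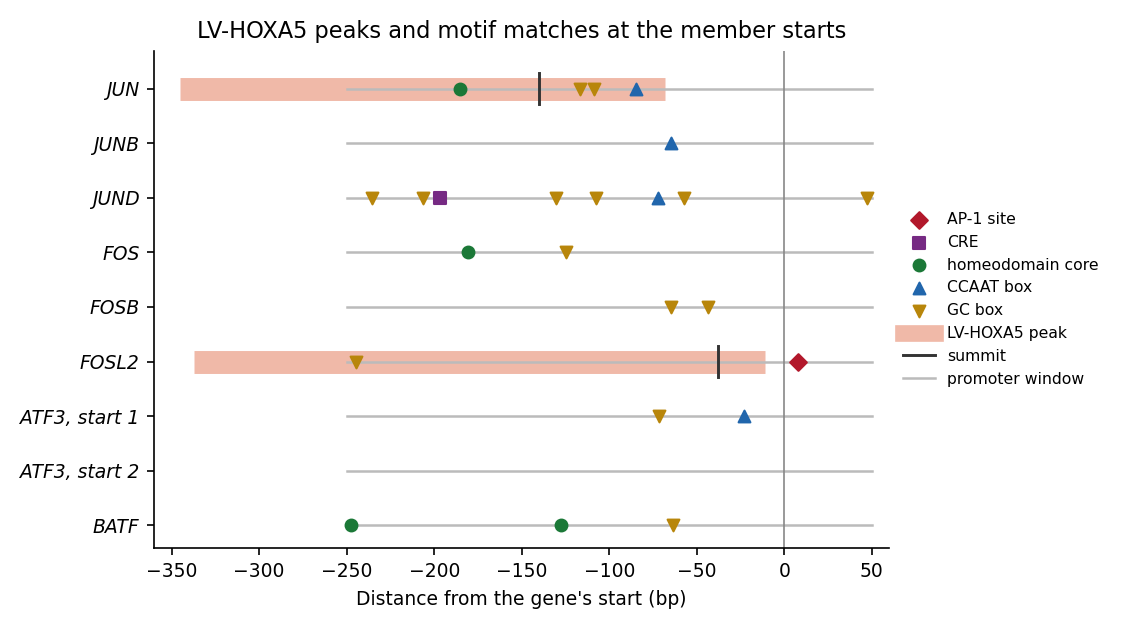
Promoter windows of 8 AP-1 genes aligned at the start, with the distance in bp on the horizontal axis. Grey lines are the windows, bars the LV-HOXA5 peaks with their summit as a black line, and symbols the motif matches on either strand. Peaks reach the windows of JUN, with the summit at -140, and FOSL2, with the summit at -38, and no symbol stands in the second window of ATF3.

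By chromosome, 2 of the 3 members on chromosome 1, the 1 on chromosome 2 and 1 of the 2 on chromosome 14 held a peak, and the 1 on chromosome 11 and the 3 on chromosome 19 did not. The shares over protein-coding genes of these chromosomes were 17.4%, 26.0%, 27.9%, 16.4% and 23.2%, in the same order.

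The other genes of the AP-1 pathway were counted in 5 lists, read against the same background of 20.7%. Of 68 genes, 20 held an LV-HOXA5 peak (29.4%, interval 19.0% to 41.7%) and 0 an LV-HOXA5-NC peak. The background of 20.7% was inside the interval of each list, as for the AP-1 genes. The lists were not matched to the background in gene length.

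Among 16 other basic leucine zipper partners, 5 held a peak: ATF2, ATF7, CREB5, NFE2L1 and NFE2L2. The highest was at ATF7, a JUN partner related to ATF2, with a fold enrichment of 10.3 and a pileup of 41 over its start, above every peak at the AP-1 genes in both measures. NFE2L1 followed with a fold enrichment of 6.17 and a pileup of 37, also over a start. Among 15 kinases of the MAP kinase pathways, which lead to AP-1, 5 held a peak: the MAP kinases MAPK7, MAPK10 and MAPK11 and the upstream kinases MAP2K4 and MAP3K5. The highest fold enrichments were 6.01 at MAP3K5 and 4.80 at MAPK10, the latter at a pileup of 11. Both peaks lay inside the gene, 181968 and 135339 bp from an annotated start. The MAPK7 peak covered a start and the MAP2K4 peak was 39 bp from one.

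Of 7 factors that act on the JUN and FOS promoters, ELK1 and MEF2D held a peak. That of ELK1, an ETS factor that works with SRF at FOS, covered its start with a fold enrichment of 8.24 and a pileup of 34, and that of MEF2D had a fold enrichment of 3.91. Of 15 other immediate-early genes, 5 held a peak: EGR1, IER5, DUSP1, DUSP6 and ZFP36. DUSP1, a phosphatase of MAP kinases, had the highest fold enrichment among them, 5.37 at a pileup of 43, followed by EGR1 at 4.62. The DUSP1 peak lay outside the gene, 1466 bp from it and 4565 bp from an annotated start. That of EGR1 was 170 bp from a start. FOS and JUNB, which are induced together with the genes of this list, had no such peak, whereas JUN and ATF3 did hold peaks. Of 15 known AP-1 targets, 3 held a peak, PLAUR at a fold enrichment of 4.97, CD44 at 4.83 and PLAU. The PLAUR peak was 1297 bp from an annotated start, and that CD44 peak 75434 bp.

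**Figure D5:**
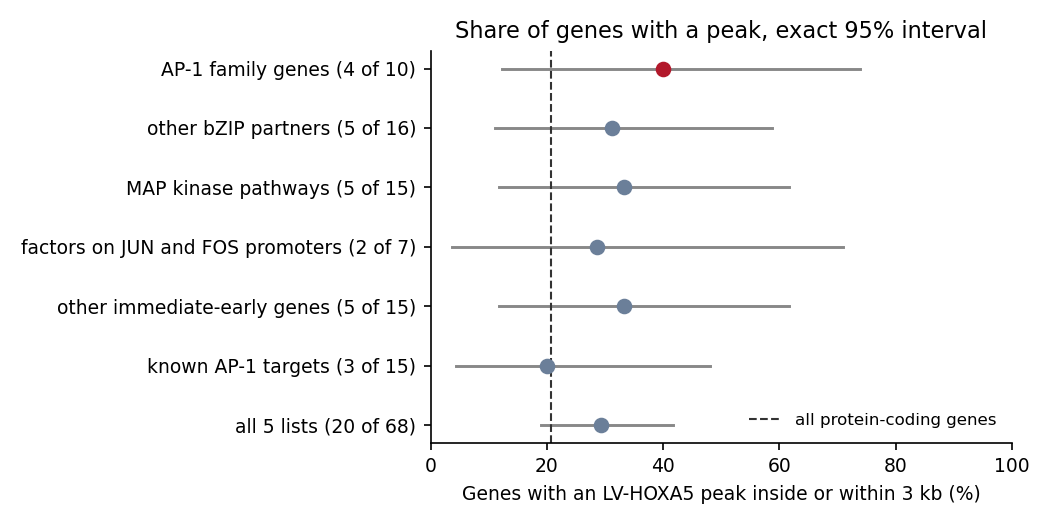
Share of genes, in %, with an LV-HOXA5 peak inside or within 3 kb, for the AP-1 family (red) and 5 lists of other AP-1 pathway genes, singly and joined (blue), with exact 95% intervals as lines. The dashed line is the share over all protein-coding genes, 20.7%. Every interval includes this value.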

How the data were processed

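The authors made 1 anti-Flag CUT & Tag library per condition and, per the file headers, ran MACS 2.2.7.1 on each library alone in paired-end mode, with duplicates already removed, a threshold of 0.05 on the q-value, 2.7e+09 bp as the effective genome size and a local range of 10 kb for the background. No control library entered the calls. Per the labels, fastp, Bowtie2, deepTools, MACS2, ChIPseeker and GRCh38 were used, and a version was given for MACS only. The deposited pileup is a signal in fragments, not scaled for depth. The deposited fold enrichment is a ratio to the local background, and the deposited q-values are given as −log10. A deposited score, made from the q-value, was not used in any result.

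The shortest peak allowed was 246 bp for LV-HOXA5 and 283 bp for LV-HOXA5-NC. Pileup and fold enrichment depend on depth and were ranked within a list only. Equal values share the better rank. Distances are those between a gene and the closest base of a peak, over 59716 genes on the chromosomes of the GRCh38.p14 table, and the scripts for distance, overlap and motifs were tested on simulated data. Local background was computed as (pileup + 1) / fold enrichment − 1, and scaled pileups as the pileup times the ratio of library totals. Promoter sequences were those of RefSeq, GRCh38. Named were all 10 members, with each peak inside or within 3 kb, the nearest and the one of highest fold enrichment within 100 kb, and every list gene with a peak, with values for the 2 of highest fold enrichment. Members and lists were chosen with earlier results of these data known, so no enrichment was tested. Python 3.11.15, NumPy 2.4.6, SciPy 1.17.1, pandas 2.3.3 and Matplotlib 3.10.9 were used.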

Additional observations from a re-analysis of the deposited data

How the results depend on the processing

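Counts and medians were held to a factor of 1.5, and the background share to its own exact interval over 20050 genes. By these limits, 19 of 26 alternatives to 8 results stayed and 7 did not. The 19 include every alternative for the counts of control peaks, and these could not move. The nearest control peak was 1.06 Mb from a member, beyond every window used, and stricter filters only remove peaks. The count of 4 AP-1 genes with an LV-HOXA5 peak was also 4 at 1 kb, at 10 kb, by summit, at a q-value of 0.001 or less, without peaks shared with the control and by nearest gene end. Leaving out peaks shared with the control could not change this count, since 0 member peaks shared one. With fold enrichments at or above the list median the count fell to 2 (ATF3 and BATF), and the 20 peaks within 100 kb fell to 7, by construction of the stricter list. The 20 became 10 at 50 kb and 34 at 200 kb. The share over all protein-coding genes was not counted at any of these other settings, so the counts under them have no background. The peaks at members stood, in the median, above 44.3% of the list by fold enrichment and above 68.6% by −log10 q-value, and the cause was not tested. The background of 20.7% was 11.3% over all genes and 16.6% over protein-coding genes no longer than ATF3, the longest member. The first, which includes noncoding genes, is below the interval of the AP-1 genes (12.2% to 73.8%), and the second is inside it. Both are below the interval of the 5 pathway lists joined (19.0% to 41.7%). The share of 11.3% is also below the intervals of the MAP kinase and immediate-early lists (each 11.8% to 61.6%). All counts of control peaks stayed at 0 under the alternatives run, as they had to, at a depth that limits what they can show. No paired analysis was possible because each condition had 1 library.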
